A study of Homo sapiens with 10 samples.

Results

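The 10 genes described here are the ERBB receptor tyrosine kinases EGFR, ERBB2, ERBB3 and ERBB4 and the ligands EGF, TGFA, AREG, EREG, HBEGF and BTC, taken by name from the 60642 genes of the expression table. Their transcripts were measured by bulk RNA-seq of polyadenylated RNA in 5 untreated human prostate cancer cell lines, with 2 biological repeats of each line and 10 samples in all. LNCaP comes from a lymph node metastasis, VCAP from a vertebral and DUCAP from a dural metastasis of the same donor, DU145 from a brain metastasis and PC3 from a bone metastasis. All lines were grown without phenol red in RPMI medium with fetal bovine serum, were given no drug, and were collected while growing exponentially. Each line stands for a single metastasis, and VCAP and DUCAP share a donor. The p-values below thus measure the spread between repeats of these 5 lines, which may be partly technical, and not the spread between tumors. Values are TPM, a transcript level scaled for gene length and for the size of the library, so that levels of different genes can be set side by side.

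ERBB receptors sit in the plasma membrane and signal as pairs, as homodimers or with another member of the family, after a ligand opens the extracellular part. ERBB2 binds no known ligand and serves as the partner of the others, whereas ERBB3 binds neuregulins but has little kinase activity of its own. The ligands are made as membrane-anchored precursors that are cut loose by ADAM proteases, and in prostate epithelium EGFR signaling is a growth stimulus that acts beside androgens.

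The label of each line was checked against marker genes. The 5 epithelial markers reached 1 TPM in both repeats of every line. All 6 luminal prostate markers did so in LNCaP, DUCAP and VCAP, but 4 of 6 in PC3 and 1 of 6 in DU145. ERG, which is driven by a gene fusion in the donor of VCAP and DUCAP, was at 122 to 199 TPM in these lines and at most at 0.19 TPM in the others. Transcripts of the mitochondrial genome took 32.1 to 36.0% of the TPM in DUCAP and VCAP and 12.7 to 22.5% in the other lines, which leaves a smaller part of the fixed TPM total for the other genes. Of markers of other cell types, the immune markers PTPRC and CD3E did not exceed 0.12 and 0 TPM, and the summed 6 immune markers were at 74.7 to 103 TPM in DU145 and 34.6 to 39.3 TPM in PC3, nearly all from CD68, against at most 3.31 TPM elsewhere. The 6 fibroblast markers summed to 36.4 and 47.9 TPM in PC3, mostly COL1A1, and to at most 7.84 TPM elsewhere, and the 4 endothelial markers to at most 5.46 TPM. Their part in the results was not tested.

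The 4 ligand genes EPGN, EREG, AREG and BTC, lie within 486 kb of chromosome 4 (GRCh38.p14), and the gaps from one to the next are 48.4 kb, 56.4 kb and 290 kb. The 250 bases upstream of the annotated starts of AREG (chr4:74444886-74445135, plus strand), EREG (chr4:74364895-74365144, plus strand) and EGFR (chr7:55018767-55019016, plus strand) are printed from RefSeq because these 3 members had the largest differences between DU145 and PC3 and the other lines on the log2(TPM + 1) scale (with a pseudocount of 0.1 TPM, BTC exceeded EGFR, at 3.75 against 3.26). Capitals mark matches to 4 motifs searched on both strands, which are the cyclic AMP response element TGACGTCA, the AP-1-like motif TGANTCA with any middle base, the GC box GGGCGG and the TATA motif TATAAA.
AREG: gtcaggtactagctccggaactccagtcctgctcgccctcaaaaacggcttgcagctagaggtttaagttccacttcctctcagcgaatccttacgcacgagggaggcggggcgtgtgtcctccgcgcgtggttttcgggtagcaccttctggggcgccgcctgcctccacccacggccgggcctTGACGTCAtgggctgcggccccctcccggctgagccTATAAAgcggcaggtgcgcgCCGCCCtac
EREG: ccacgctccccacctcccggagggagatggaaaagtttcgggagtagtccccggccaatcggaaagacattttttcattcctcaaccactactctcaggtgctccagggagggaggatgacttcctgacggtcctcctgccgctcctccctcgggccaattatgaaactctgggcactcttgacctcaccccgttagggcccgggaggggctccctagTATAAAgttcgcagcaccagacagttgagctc
EGFR: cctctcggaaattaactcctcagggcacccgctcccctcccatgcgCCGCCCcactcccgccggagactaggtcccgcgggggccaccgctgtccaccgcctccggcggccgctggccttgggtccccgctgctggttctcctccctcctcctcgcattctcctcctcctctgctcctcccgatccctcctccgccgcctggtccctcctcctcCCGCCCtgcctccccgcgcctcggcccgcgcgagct
The AREG sequence holds a TGACGTCA 65 bases before the start, a motif found in 1.77% of the 27305 promoters of the same length. A TATAAA stands 29 bases before the start of AREG and 32 bases before that of EREG, against 11.1% of all promoters with this motif. EGFR has no TATAAA in this window and 2 copies of the GC box, which 42.3% of promoters hold and of which AREG has 1 copy. Among the 9 members with a promoter in the table, TGANTCA was found upstream of ERBB2, as TGATTCA, and of EGF, as TGAGTCA, against 6.60% of all promoters. The GC content was 73.6% for EGFR, 65.2% for AREG and 58.0% for EREG, with a median of 58.0% over all promoters. These matches describe the letters only, and binding was not measured.

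EGFR, the receptor of EGF, TGFA and AREG (chromosome 7, 55019017 to 55211628), was at 61.46 and 62.05 TPM in the repeats of DU145 and at 25.69 and 17.34 TPM in PC3. It was at 7.09 and 8.51 TPM in LNCaP, 4.04 and 4.23 TPM in VCAP and 1.38 and 1.65 TPM in DUCAP. In bulk RNA a smaller share of expressing cells and less RNA per cell cannot be told apart. The lines did not overlap, and the mean of DU145 was 40.8 times that of DUCAP. EGFR was the only 1 of the tested members called in all 10 pairs of lines (limma, Benjamini-Hochberg adjusted p under 0.05). The step from LNCaP to VCAP was 0.77 (SE 0.20) on the log2(TPM + 1) scale with an adjusted p of 0.0093, but it was 0.30 after quantile normalization (adjusted p = 0.21) and after median-ratio scaling (adjusted p = 0.19), and it missed the threshold without the second repeat of LNCaP (adjusted p = 0.070). The step from VCAP to DUCAP, 1.03, missed it without the first repeat of DUCAP (adjusted p = 0.071) or the second of VCAP (adjusted p = 0.050). The antisense gene EGFR-AS1 did not exceed 0.05 TPM in any sample.

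ERBB2, the ligandless partner of the family (chromosome 17, 39688094 to 39728658), had another order of lines. It was at 90.89 and 114.35 TPM in LNCaP, 70.43 and 42.12 TPM in DU145, and 28.75 and 34.01 TPM in PC3. VCAP had 10.04 and 7.76 TPM and DUCAP 5.74 and 5.61 TPM. LNCaP was thus highest and DUCAP lowest, and 9 of 10 pairs of lines were called. VCAP and DUCAP could not be told apart by this test, with a difference of 0.56 (95% interval from -0.01 to 1.13, adjusted p = 0.17), although this pair was called without either repeat of DU145 (adjusted p = 0.043 in both cases). The smallest called steps rested on single samples. LNCaP over DU145 (0.89, adjusted p = 0.015) had an adjusted p of 0.061 without the second repeat of DU145 and of 0.11 without the second of LNCaP. DU145 over PC3 (0.78, adjusted p = 0.030) had an adjusted p of 0.13 without the first repeat of DU145, of 0.15 without the first and 0.069 without the second of PC3, and of 0.061 without the filter on low values.

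ERBB3, the neuregulin receptor (chromosome 12, 56080108 to 56103505), was at 103.61 and 102.17 TPM in LNCaP and at 39.17 and 16.61 TPM in DU145, where the repeats differed by 2.36-fold. The remaining lines lay close together, with 12.04 and 12.69 TPM in DUCAP, 12.76 and 8.53 TPM in PC3 and 9.24 and 11.04 TPM in VCAP. LNCaP stood above every other line, and the samples of PC3 reached from below those of VCAP to above those of DUCAP. The difference between PC3 and VCAP was 0.04 (adjusted p = 0.93) and that between DUCAP and PC3 0.22 (95% interval from -0.58 to 1.02), but DUCAP was called above PC3 after quantile normalization (1.10, adjusted p = 0.025) and median-ratio scaling (0.98, adjusted p = 0.035). DU145 was called above DUCAP by 0.99 (adjusted p = 0.033), a call that was lost after each of the 3 rescalings and without the first repeat of DU145, where the difference was 0.40 (adjusted p = 0.15), without either repeat of DUCAP (adjusted p = 0.12 and 0.094) and without the filter on low values (adjusted p = 0.076). DU145 over VCAP, 1.26, was 0.65 after quantile normalization (adjusted p = 0.14) and 0.73 after median-ratio scaling (adjusted p = 0.095), and it missed the threshold without the first repeat of VCAP (adjusted p = 0.065). DU145 over PC3, 1.22 (adjusted p = 0.020), missed it without the first repeat of DU145 (0.62, adjusted p = 0.050) or the second of PC3 (0.95, adjusted p = 0.13).

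ERBB4, a receptor of neuregulins, HBEGF and BTC (chromosome 2, 211375717 to 212538802), was between 0 and 0.15 TPM in the 10 samples and listed at 0 in 4 of them. It did not reach the minimum of 1 TPM in 2 samples and was not tested.

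**Figure D1:**
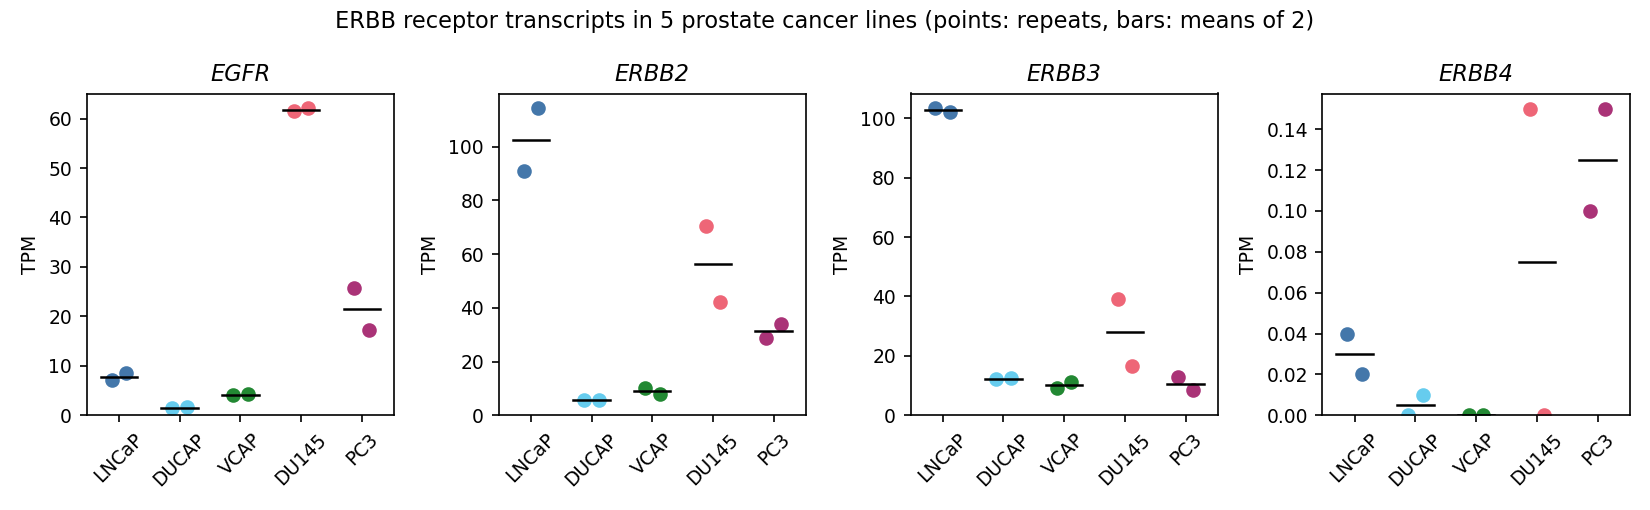
TPM of the 4 ERBB receptors in the 5 lines, with 1 point per repeat, a bar at the mean of 2 repeats and a separate vertical axis for each gene. EGFR is highest in DU145 and PC3, ERBB2 and ERBB3 are highest in LNCaP, and ERBB4 stays at or below 0.15 TPM.

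AREG, encoding amphiregulin, a low-affinity ligand of EGFR (chromosome 4, 74445136 to 74455005), was the most abundant ligand transcript of the set. It was at 140.69 and 246.83 TPM in DU145 and at 56.78 and 41.31 TPM in PC3. LNCaP had 0.04 and 0.09 TPM, DUCAP 0.06 TPM in each repeat, and VCAP was listed at 0 in both. DU145 and PC3 did not overlap with the other lines, and DU145 exceeded PC3 by 1.92 (SE 0.27, adjusted p = 0.00051). Of 10 pairs of lines 7 were called, the exceptions being the 3 pairs among LNCaP, DUCAP and VCAP. AREG passed the filter on low values through DU145 and PC3 alone.

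EREG, encoding epiregulin and placed next to AREG (chromosome 4, 74365145 to 74388749), was at 36.56 and 58.05 TPM in DU145 and at 0.39 and 0.30 TPM in PC3. It was listed at 0 in LNCaP and DUCAP and at 0.01 and 0 TPM in VCAP. EREG thus reached 1 TPM in DU145 only and passed the filter through this line. DU145 exceeded PC3 by 5.13 (SE 0.20, adjusted p = 5.2e-07), whereas the low PC3 values were not called against LNCaP (0.43, adjusted p = 0.10) unless the pseudocount was 0.1 TPM in place of 1 TPM (adjusted p = 0.00033). AREG was 1.94 and 2.09 log2 units above EREG in the repeats of DU145 and 7.19 and 7.11 units above it in PC3.

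BTC, encoding betacellulin (chromosome 4, 74744759 to 74794523), was at 4.74 and 6.28 TPM in DU145 and 4.96 and 4.05 TPM in PC3. VCAP had 0.90 and 1.06 TPM, LNCaP 0.20 and 0.18 TPM, and DUCAP 0.04 and 0.10 TPM. DU145 and PC3 overlapped, with a difference of 0.24 (95% interval from -0.13 to 0.61), and each was above the other lines. VCAP was called above LNCaP by 0.73 (adjusted p = 0.0042) and above DUCAP by 0.89 (adjusted p = 0.0073), the latter not without the first repeat of DUCAP (adjusted p = 0.062). BTC, too, passed the filter through DU145 and PC3 alone.

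TGFA, encoding transforming growth factor alpha (chromosome 2, 70447284 to 70553826), was at 16.09 and 24.06 TPM in DU145 and 12.74 and 9.18 TPM in PC3. It was at 2.75 and 2.16 TPM in LNCaP, 1.68 and 1.39 TPM in DUCAP and 0.60 and 0.98 TPM in VCAP. The lines did not overlap in this order. DU145 exceeded PC3 by 0.81 (adjusted p = 0.024), a call lost without the second repeat of DU145 (0.53, adjusted p = 0.10) or of PC3 (0.59, adjusted p = 0.16), with a pseudocount of 0.1 TPM (adjusted p = 0.058) and without the filter on low values (adjusted p = 0.050). LNCaP exceeded VCAP by 0.95 (adjusted p = 0.0093), which missed the threshold after quantile normalization (adjusted p = 0.056) and median-ratio scaling (adjusted p = 0.052) and without the first repeat of LNCaP (adjusted p = 0.064) or of VCAP (adjusted p = 0.061). LNCaP and DUCAP differed by 0.44 (95% interval from -0.12 to 1.00), which was not called, and neither was DUCAP over VCAP (0.51, adjusted p = 0.20), except after quantile normalization (0.91, adjusted p = 0.043).

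HBEGF, the heparin-binding ligand of EGFR and ERBB4 (chromosome 5, 140332843 to 140346603), varied least among the ligands of the set. It was at 12.28 and 14.64 TPM in DU145, 11.55 and 7.79 TPM in PC3, 6.26 and 6.99 TPM in VCAP, 6.70 and 6.35 TPM in DUCAP and 2.21 and 2.96 TPM in LNCaP. LNCaP was below each of the other lines, and DUCAP, its neighbour in the order, was above it by 1.08 (adjusted p = 0.0023). DU145 exceeded DUCAP by 0.94 and VCAP by 0.92, but by 0.07 and 0.28 after quantile normalization, where neither passed, and by 0.23 and 0.41 after median-ratio scaling, where they did not pass either. PC3 was not called apart from DUCAP, VCAP or DU145, except from DU145 without the first repeat of PC3 (adjusted p = 0.044) and from DUCAP and VCAP without the second (adjusted p = 0.024 and 0.027).

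EGF (chromosome 4, 109912883 to 110013766) was the only ligand of the set with its maximum in LNCaP, at 5.62 and 6.43 TPM. DU145 had 2.13 and 1.05 TPM, VCAP 0.52 and 0.49 TPM, PC3 0.45 and 0.49 TPM and DUCAP 0.13 and 0.02 TPM. LNCaP exceeded DU145 by 1.47 (SE 0.20, adjusted p = 0.00031). VCAP and PC3 differed by 0.03 (95% interval from -0.42 to 0.48) and were not called apart. DU145 exceeded VCAP by 0.75 and PC3 by 0.79, of which the first missed the threshold after quantile normalization (adjusted p = 0.055) and median-ratio scaling (adjusted p = 0.054) and the second without either repeat of PC3 (adjusted p = 0.058 and 0.050). DUCAP was not called below VCAP (0.49) or PC3 (0.45), but both were called with a pseudocount of 0.1 TPM (adjusted p = 0.015 and 0.0044) and without either repeat of DU145.

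**Figure D2:**
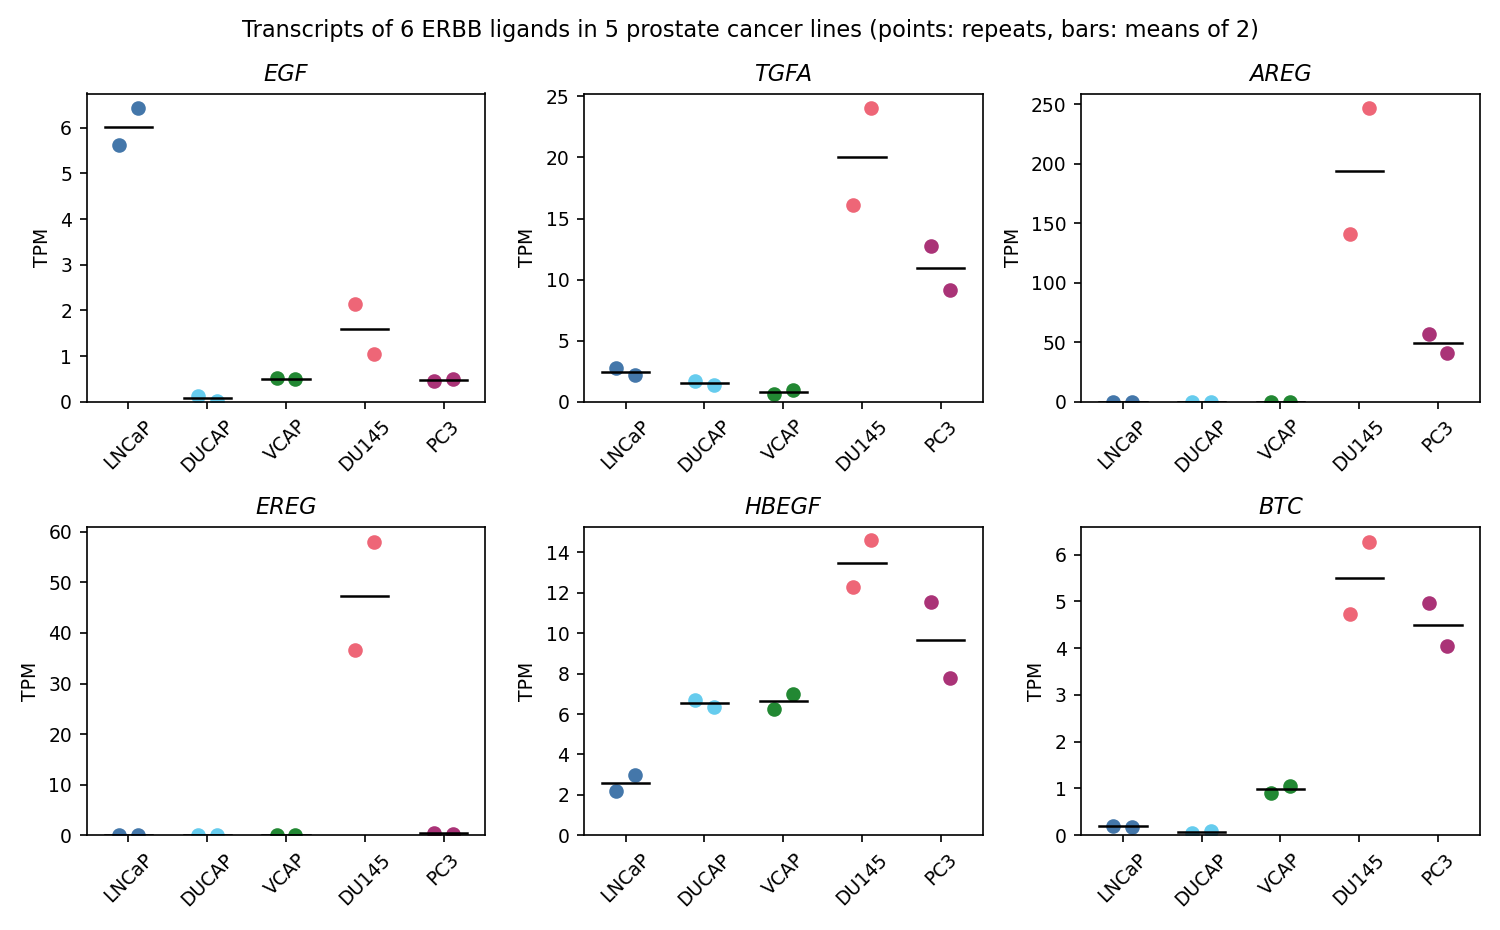
TPM of the 6 ligands in the 5 lines, with 1 point per repeat, a bar at the mean of 2 repeats and a separate vertical axis for each gene. AREG, TGFA, BTC and HBEGF are highest in DU145 and PC3, EREG in DU145 and EGF in LNCaP.

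Over the 9 tested genes, each differed between at least one pair of lines by the F test, beside 90.8% of all tested genes. LNCaP differed from DU145 in 9 of the 9 (55.9% of all genes called), from PC3 in 8 (57.7%), from VCAP in 7 (60.1%) and from DUCAP in 5 (60.7%). DU145 differed from DUCAP and from VCAP in 9 each, beside 66.6% and 65.4% of all genes, and from PC3 in 7 (49.3%). PC3 differed from DUCAP and from VCAP in 5 each, beside 67.8% and 67.6% of all genes. DUCAP and VCAP differed in EGFR and BTC, 2 of 9 beside 18.3% of all genes. Since AREG, EREG and BTC entered through the lines where they are high, these counts describe the set and lend no support to a difference between lines.

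**Figure D3:**
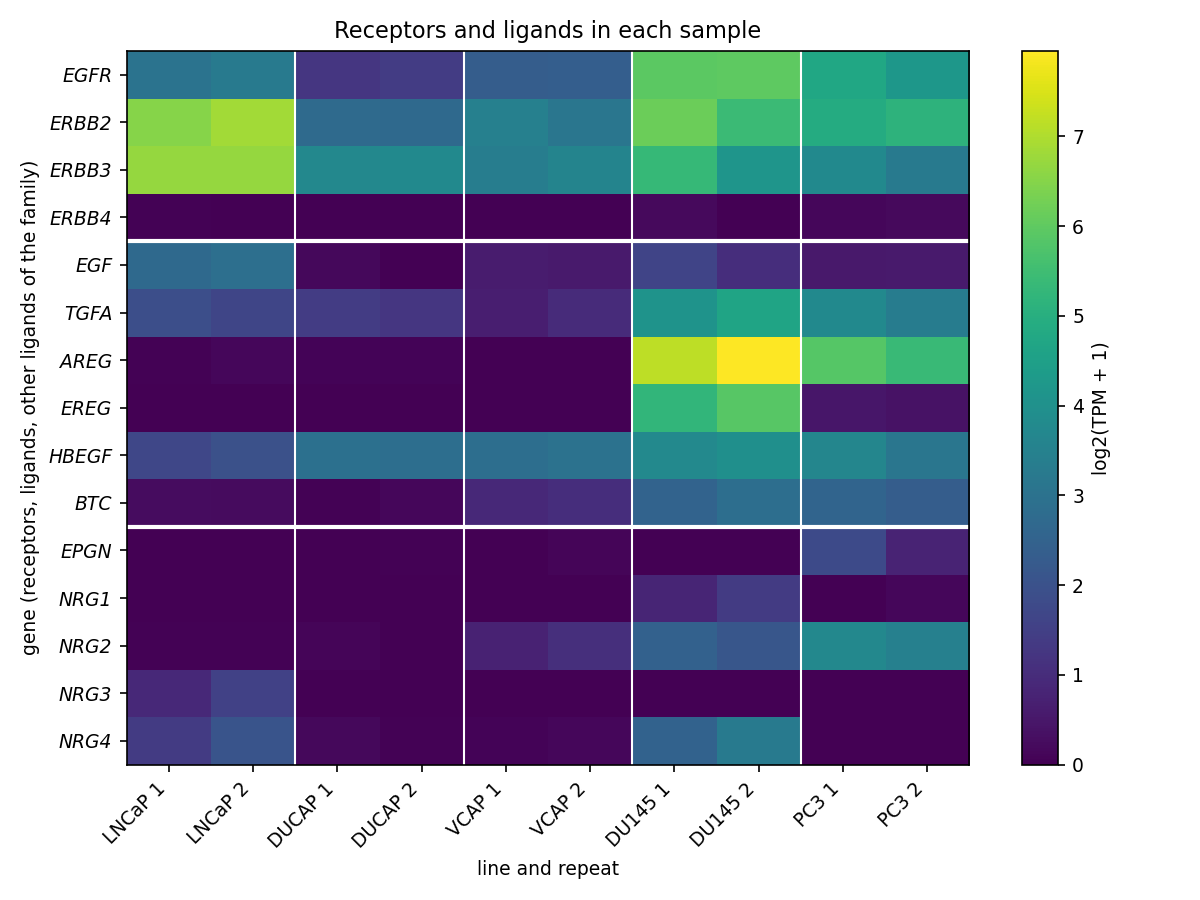
Heat map of log2(TPM + 1) for the 10 genes and, below them, EPGN and NRG1 to NRG4 (rows) in the 10 samples (columns, grouped by line). Repeats of a line share their colours closely, and the AREG and EREG rows separate DU145, and for AREG also PC3, from LNCaP, DUCAP and VCAP.

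Within a line, the receptors differed in their shares of the summed receptor TPM. The sum was 202 and 225 TPM in LNCaP, 171 and 121 TPM in DU145, 67.3 and 60.0 TPM in PC3, 23.3 and 23.0 TPM in VCAP and 19.2 and 20.0 TPM in DUCAP. EGFR made up 3.65% ± 0.187 (SD, n = 2) of it in LNCaP, 7.73% ± 0.752 in DUCAP, 17.8% ± 0.738 in VCAP, 33.5% ± 6.57 in PC3 and 43.6% ± 10.9 in DU145. EGFR exceeded ERBB3 in all 4 samples of DU145 and PC3 and was below it in the other 6. ERBB3 exceeded ERBB2 in both DUCAP repeats, by 1.07 and 1.18 log2 units, and was below it in all 4 samples of DU145 and PC3, while the sign differed between the repeats of LNCaP and of VCAP.

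The ligand sum was 212 and 351 TPM in DU145 and 86.9 and 63.1 TPM in PC3, against 7.92 to 11.8 TPM in the other 6 samples. AREG supplied 68.3% ± 2.92 (SD, n = 2) of it in DU145 and 65.4% ± 0.0600 in PC3. HBEGF supplied 79.0% ± 1.67 in DUCAP and 74.5% ± 1.48 in VCAP, and EGF 53.2% ± 1.74 in LNCaP. Each line thus had 1 leading ligand in both repeats. Set against EGFR, the ligand sum was 5.52 ± 1.02 times its TPM in DUCAP, 4.56 ± 1.55 in DU145, 3.51 ± 0.183 in PC3, 2.15 ± 0.140 in VCAP and 1.46 ± 0.0970 in LNCaP. DUCAP, with the least EGFR, therefore had a ratio that overlapped the ratio of DU145.

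**Figure D4:**
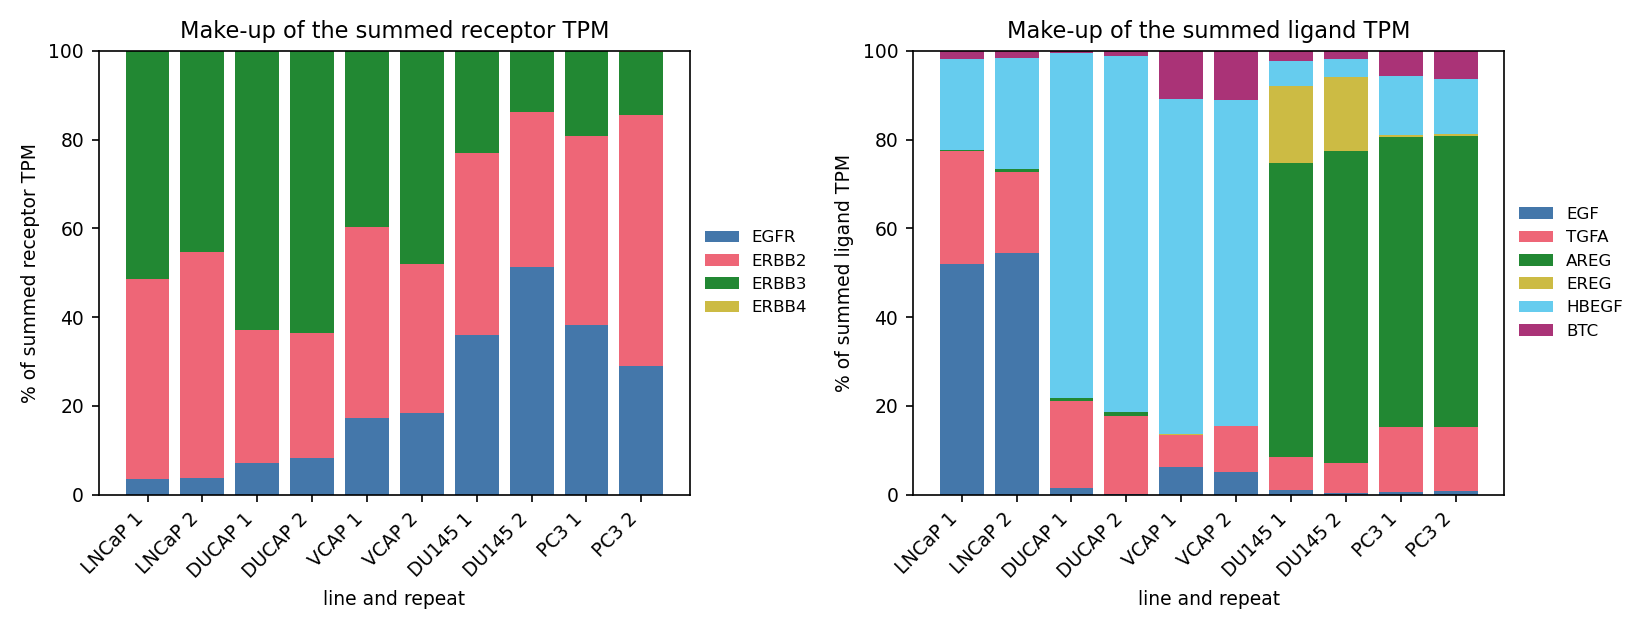
Stacked bars of the share (percent) of each receptor in the summed receptor TPM and of each ligand in the summed ligand TPM, with 1 bar per sample. AREG takes 65.4 to 70.3% of the ligand sum in DU145 and PC3, HBEGF 73.4 to 80.2% in DUCAP and VCAP, and EGF 51.9 to 54.4% in LNCaP.

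A receptor and a ligand were counted as a detected pair in a line where both genes had at least 1 TPM in both repeats. Of the 7 pairs of EGFR with EGF, TGFA, AREG, EREG, HBEGF, BTC and EPGN, DU145 had 6, all but EPGN. PC3 had 4, with TGFA, AREG, HBEGF and BTC. LNCaP had 3, with EGF, TGFA and HBEGF, DUCAP had 2, with TGFA and HBEGF, and VCAP had 1, with HBEGF. Some of these counts rest on values near the cut-off. In VCAP, BTC was at 0.90 and 1.06 TPM and TGFA at 0.60 and 0.98 TPM, and in DU145 EGF was at 2.13 and 1.05 TPM. The cut-off was not adjusted for the larger mitochondrial share in DUCAP and VCAP. The pair of EGFR and HBEGF was the only one detected in every line. No pair of ERBB4 was detected, because ERBB4 itself was below 1 TPM. Of the neuregulins, NRG1 and NRG2 were paired with ERBB3, and NRG1 to NRG4 with ERBB4. NRG2 was at 12.04 and 9.95 TPM in PC3 and 4.50 and 3.41 TPM in DU145, so that ERBB3 and NRG2 formed a detected pair in these lines. In VCAP NRG2 was at 0.70 and 1.10 TPM, so this pair missed the cut-off there through the first repeat. NRG1 was highest in DU145 with 0.78 and 1.60 TPM, NRG4 was at 4.69 and 8.70 TPM in DU145, at 1.58 and 3.19 TPM in LNCaP and listed at 0 in both repeats of PC3, and NRG3 was at 0.90 and 1.89 TPM in LNCaP. EPGN, encoding epigen, reached 2.44 and 0.75 TPM in PC3.

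DU145 and PC3 were then compared with LNCaP, DUCAP and VCAP, the split that the study draws between these lines. DUCAP and VCAP, from the same donor, entered this contrast as separate lines with the same weight as LNCaP. By limma 7 members were called higher in DU145 and PC3 and 0 lower, beside 51.9% of all tested genes called higher and 22.5% called lower. AREG, EREG and BTC, which passed the filter only through DU145 and PC3, had to differ in this direction. Of the 6 others tested, EGFR, ERBB2, TGFA and HBEGF were higher and ERBB3 and EGF were not called. AREG differed by 6.53 (SE 0.17, adjusted p = 2.0e-08) and EGFR by 2.95 (SE 0.13, adjusted p = 2.4e-07) on the log2(TPM + 1) scale. EREG differed by 2.99, which came from DU145, TGFA by 2.65, BTC by 2.13 (EREG by 5.48 and BTC by 3.75 with a pseudocount of 0.1 TPM), ERBB2 by 1.16 and HBEGF by 1.06. In 6 of them all 4 samples lay above all 6 others, beside 19.8% of all tested genes, and in none did all 4 lie below, beside 6.92%. AREG, EREG and BTC are among them, so this count is not free of the filter, and the others are EGFR, TGFA and HBEGF. ERBB2 is the exception among those called, since LNCaP had the highest values of all and the groups overlapped.

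ERBB3 (-0.51, SE 0.22, adjusted p = 0.068) and EGF (-0.22, SE 0.13, adjusted p = 0.15) did not pass. The median of all 17520 tested genes was itself 0.40 in this contrast, with 69.8% of the calls higher, and it moved to -0.07 after quantile normalization (46.9% higher), 0.00 after median-ratio scaling (51.0% higher) and 0.20 without the mitochondrial genes (60.6% higher). ERBB3 was called lower after quantile normalization (-1.05, adjusted p = 0.0035), after median-ratio scaling (-0.95, adjusted p = 0.0048), without the mitochondrial genes (-0.74, adjusted p = 0.023) and without the first repeat of DU145 (-0.81, adjusted p = 0.00077). EGF was called lower under quantile normalization (-0.40, adjusted p = 0.0067), under median-ratio scaling (-0.32, adjusted p = 0.046) and without the first repeat of DU145 (-0.37, adjusted p = 0.0054). ERBB2 and HBEGF remained called higher under these 3 rescalings, with 0.62 and 0.48 after quantile normalization, but HBEGF no longer had all 4 samples above the others. Whether the higher share of mitochondrial transcripts in DUCAP and VCAP accounts for part of these differences was not tested.

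**Figure D5:**
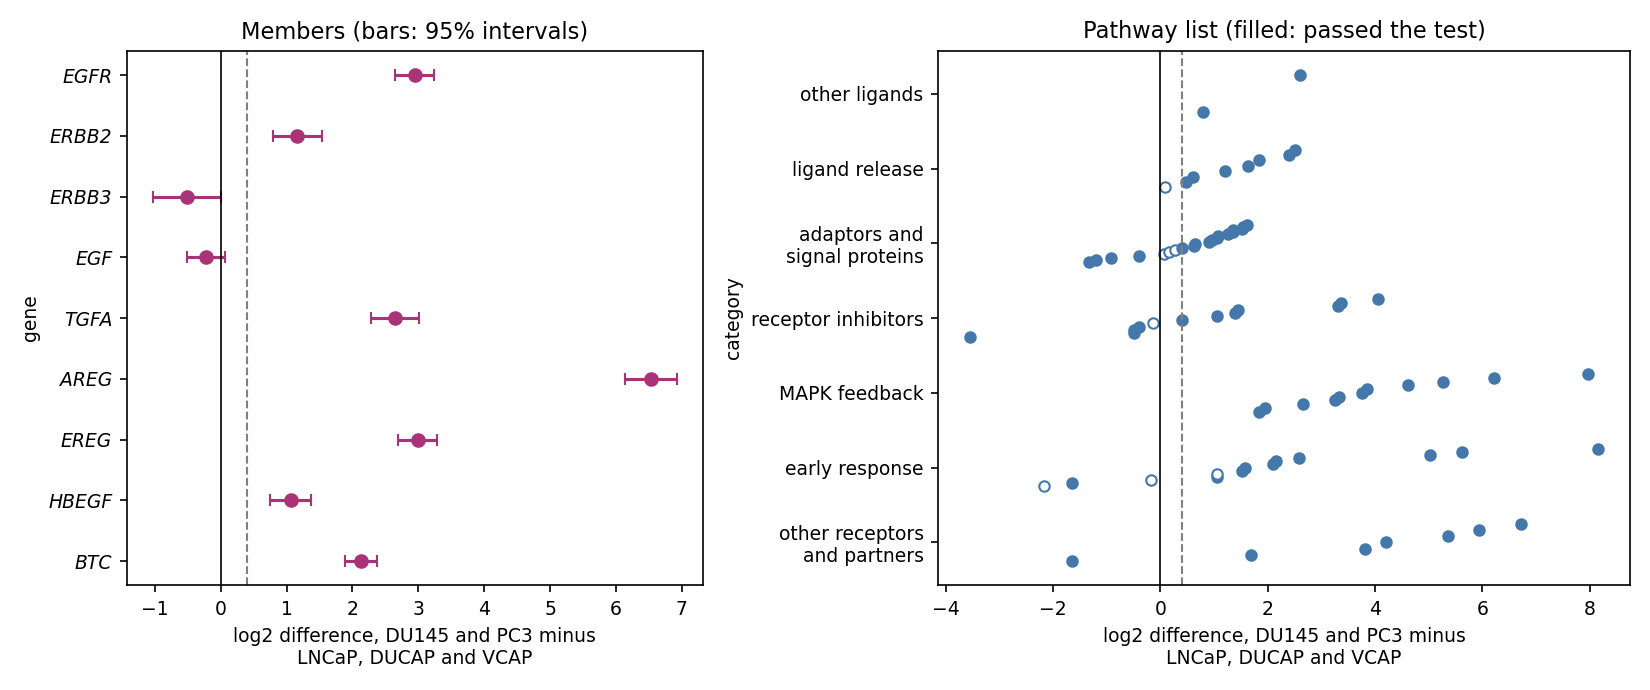
Differences of DU145 and PC3 minus the other lines, in log2(TPM + 1) with 95% intervals, for the 9 tested members. The dashed line is the median of all tested genes, 0.40, and the intervals of AREG, EREG, EGFR, TGFA, BTC, ERBB2 and HBEGF lie above it.

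The other genes of the pathway were taken from a list of 79, of which 73 were tested. In the same contrast 55 were called higher, 10 lower and 8 not called, beside 51.9% of all tested genes higher and 22.5% lower, and their median difference was 1.46 beside 0.40 for all tested genes. In 35 all 4 samples of DU145 and PC3 lay above the others, beside 19.8% of all tested genes. NRG2, ADAM12, UBASH3B, SPRED3, IER3, PHLDA1, FOSL1, ETV4, ETV5 and MUC1 passed the filter only through DU145 and PC3. All of them are among the 35 and count toward the median of 1.46, so neither value is free of the filter. Of the other 63 tested genes 45 were higher and 10 lower. Over all tested genes of the list, 48 were higher and 13 lower after quantile normalization, against 55 and 10 without rescaling. With median-ratio scaling 49 were higher and 14 lower, and without the mitochondrial genes 53 and 12. The shares of 51.9% and 22.5% belong to the fit without rescaling. There 69.8% of the calls over all tested genes were higher, but 46.9%, 51.0% and 60.6% after these 3 rescalings. In the feedback genes of the MAPK pathway, 11 of 11 were higher, also after each of the 3 rescalings, and 3 of these are among the genes that passed only through DU145 and PC3. IER3, an early response gene that prolongs ERK signaling, differed by 7.97 and PHLDA1 by 6.21: PHLDA1 was at 88.13 and 87.15 TPM in DU145 and at most at 0.62 TPM in LNCaP, DUCAP and VCAP. Among 13 tested early response genes 9 were higher, led by the AP-1 subunit FOSL1 (8.16) and the ETS factor ETV4 (5.63), while EGR1, FOS and JUN were not called. FOSB was lower by an adjusted p of 0.035, and this call was lost without the filter and without either repeat of LNCaP or PC3, the second of VCAP or the second of DU145 (adjusted p up to 0.096). These 4 and RHBDF1 were named after their values were seen. So were the higher regulators of receptor turnover given below, other than UBASH3B, and the genes given below only as lower or not called.

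Of the 8 genes that release the ligands, 7 were higher, beside 51.9% of all tested genes, and ADAM10 was not called. After quantile normalization and with median-ratio scaling 5 were higher and ADAM10 was lower. Of the calls over all tested genes, 46.9% and 51.0% were then higher, against 69.8% without rescaling. The call of RHBDF1 (0.49, adjusted p = 0.043) held in 6 of 17 alternatives. RHBDF2, which guides ADAM17 to the surface, differed by 2.51, and ADAM17, the main sheddase of AREG and TGFA, by 2.41, with 58.58 and 40.43 TPM in DU145, 26.23 and 20.63 TPM in PC3 and at most 7.86 TPM in the other lines. Of 12 genes listed as inhibitors or regulators of receptor turnover, 7 were higher, beside 51.9% higher and 22.5% lower among all tested genes. The higher ones were ERRFI1 (3.37), SH3KBP1 (3.31), SOCS4, PTPN1, SOCS5, UBASH3B and STUB1, the last not after any of the 3 rescalings. LRIG1, LRIG3, RNF41 and PTPRJ were lower and LRIG2 was not called. UBASH3B, a phosphatase that is known to limit removal of the receptor rather than to restrain it, differed by 4.06 (6.44 with a pseudocount of 0.1 TPM). LRIG1, a transmembrane inhibitor that promotes degradation of ERBB receptors, fell by 3.55: it was at 23.75 to 50.47 TPM in LNCaP, DUCAP and VCAP, 10.26 and 4.68 TPM in DU145 and 0.24 and 0.28 TPM in PC3. Of 20 adaptors and effectors 13 were higher and 4 lower, beside the same shares of all genes. EPS15, GRB14, STAT3 and STAT5B were the lower ones, and PLCG1, NCK1 and GRB7 were not called. After quantile normalization 10 were higher and 5 lower, where 46.9% of the calls over all tested genes were higher. CBL, the ubiquitin ligase of EGFR (1.62), and RASA1, a Ras GTPase-activating protein (1.55), had the largest differences. Among other receptors and partners 6 of 7 were higher, with ITGB4, integrin beta 4, at 6.71 and ANXA1, annexin A1, at 5.94. IGF1R was lower. Of the other ligands NRG2 was higher by 2.60 (4.69 with a pseudocount of 0.1 TPM) and NRG4 by 0.80, which came from DU145, since PC3 was called below LNCaP by 1.72 (adjusted p = 0.00093). EPGN, NRG1 and NRG3 did not pass the filter and were not tested.

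For each member the tested genes with the most similar pattern over the 10 samples were found by the root mean square distance of mean-centred log2(TPM + 1) values. The genes nearest to EGFR were OSGIN1, CPNE2 and RUSC2, at distances of 0.25, 0.28 and 0.28. Nearest to AREG were GPRC5A (0.23), an orphan receptor, CAV2 (0.26), a caveolin, and LAMB3 (0.34), a laminin chain. Within a distance of 1 lay 49 genes for AREG, whose line means span 7.55, and 9823 for HBEGF, whose line means span 2.02. Distances and ranks thus depend on the span of a gene. Nearest to EREG were ZNF655, BCAT1 and LY6K, to TGFA ELK3, C15orf41 and NIBAN1, and to BTC SMURF2, PTTG1IP and JADE2. ERBB2 was nearest to NINJ1 (0.25), A1BG and AC009237.14, ERBB3 to LINC02560, PDZK1IP1 and AL163540.1, EGF to C5orf66, MFAP3L and LINC02447, and HBEGF to DEDD2, FANCL and SPTAN1. Nearness on this scale does not mean like fold changes when a neighbour is low. PDZK1IP1 had a mean of 10.5 TPM in LNCaP and 0 TPM in DUCAP, VCAP and PC3, where ERBB3 had 12.4, 10.1 and 10.6 TPM. A1BG was at 0.025 TPM in DUCAP, where ERBB2 was at 5.68 TPM. Among the members themselves, ERBB3 and EGF were close, at 0.43. EGF ranked as number 29 for ERBB3, and ERBB3 as number 251 for EGF. EGFR and TGFA were at 0.62. AREG and EREG, neighbours on the chromosome, were at 2.01. EREG ranked as number 519 for AREG, and AREG as number 5234 for EREG. The points share their libraries, and these distances are descriptions without a test.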

How the data were processed

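RNA-seq libraries were made by the study from polyadenylated RNA with a strand-specific kit. According to the submitters' processing notes, FastQC 0.11.9, Trim Galore 0.6.5, STAR 2.7.2b and RSEM 1.3.3 were used with GRCh38, and the authors deposited TPM per gene and sample in 1 table. TPM keep no depth, so precision rests on 2 repeats per line and no counting interval was computed. Nothing says whether the biological repeats were grown on separate days, and DU145 and PC3 also carry culture numbers, which were not used.

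Of all genes, the 17520 that reached 1 TPM in 2 or more samples entered the tests, as log2(TPM + 1), and limma 3.58.1 (R 4.3.3) fitted a mean for each line, with a trended prior variance, 5 residual degrees of freedom and Benjamini-Hochberg adjustment at 0.05 over all tested genes within each contrast. Fold changes on this scale understate those of low genes. The fit was tested on simulated data. The named genes were the members, EPGN and the neuregulins, from each further pathway category the 2 largest called differences, and the 3 nearest patterns of each member whose line means span at least 2. Positions and promoters came from RefSeq (GRCh38.p14), which matched 10 and 9 of the 10 members. ERBB3 had no promoter entry. The members, lists and tests were chosen with earlier results of these data known. Alternatives were another pseudocount, no filter, 3 rescalings, limma without trend, a replicate block and leaving out each sample.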

Additional observations from a re-analysis of the deposited data

How the results depend on the processing

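The counts of called members and of called pathway genes, higher and lower together, kept within 1.5 times their value under every alternative. With 10 members and 79 pathway genes listed, neither count could rise beyond this bound, so only a fall was checked. The directions did shift. Members went from 7 higher and 0 lower to 7 and 2 with quantile as well as median-ratio rescaling. Pathway genes went from 55 higher and 10 lower to 48 and 13 with the first and 49 and 14 with the second. Over all tested genes, the higher part of the calls went from 69.8% to 46.9% and 51.0%. Calls over pairs of lines numbered 66, with 60 to 71 over the alternatives and 62 to 65 when 1 sample was left out, and no called difference reversed. Samples with the same repeat number did not deviate together (mean r = 0.00922 over 10 pairs of lines, 3 above 0.1), so the numbers were not used as pairs. With the replicate block 66 pairs of lines, 7 members and 66 pathway genes were called, the last against 65 without it, and the block changed no call of a member. EGF in DU145 and PC3 against the other lines reversed to 0.17 with log2(TPM + 0.1), which was not called (adjusted p = 0.58), against -0.22. Leaving out 1 sample gave 6 to 8 called members, and EREG then failed the filter and was not tested when either repeat of DU145 was the one left out. ERBB4 could be tested only without the filter, where 8 members were called. TPM give no depth, so a value listed at 0 sets no upper limit.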
